A study of Homo sapiens with 22 samples.

Results

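A run of poly(A) sites is a stretch of 1 strand in which several cleavage sites follow each other, so that 1 transcript, or several transcripts ending close together, can be cut and polyadenylated at any of them. Sites entered with a mean of at least 5 reads over the 10 libraries, outside the mitochondrial chromosome. Consecutive sites of 1 strand at most 2000 nt apart were joined, and runs with at least 3 sites were kept. The rule found 2891 such runs among 22145 runs in all (13.1%), beside 3665 runs of 2 sites and 15589 isolated sites. They held 11861 of the 34780 sites that passed the read rule (34.1%). Members were thus chosen by the mean reads of each site over all libraries and by site positions. Each site had to pass on its own, so the split of reads among sites helped decide which runs counted 3. A site could also pass through a high count in 1 group.

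Kasumi-1, an established human acute myeloid leukaemia line with a RUNX1-RUNX1T1 fusion, had been transduced with lentivirus carrying shControl, the first FIP1L1 shRNA (shFIP1L1-1, here shRNA 1) or the second (shFIP1L1-2, here shRNA 2). All groups were selected with puromycin and grown in the same medium. Poly(A) sites were counted by 3'READS, a sequencing method for the ends of poly(A)+ RNA, in 3 control, 4 shRNA 1 and 3 shRNA 2 libraries, and gene counts came from RNA-seq with 4 libraries in each group. The labels do not say whether replicates were separate transductions, or how long after transduction the cells were taken, so the p-values refer only to the variation among these libraries, which may be technical.

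FIP1L1 belongs to CPSF, the complex that recognises the poly(A) signal and cuts the transcript. It binds U-rich RNA near the poly(A) signal and contacts poly(A) polymerase. Where a transcript holds several sites in a row, a cut at an early site gives a short 3' end and a cut at a late site a long one, and the balance between them is known to respond to the level of processing factors. Sites in a row can also belong to different last exons, to RNAs cut inside an intron, or to neighbouring genes on 1 strand. The site table carries no gene names, so runs are named by chromosome, strand and hg19 start and end, and the first site is the most upstream on the strand.

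FIP1L1 mRNA lay at 38.9 to 44.1 library-scaled counts (CPM) in the control RNA-seq libraries, at 14.1 to 17.6 with shRNA 1 and at 18.7 to 20.2 with shRNA 2, without overlap between groups. The log2 changes were -1.43 ± 0.10 (SE) and -1.08 ± 0.10 (SE), with adjusted p of 1.92e-11 and 3.01e-09 in edgeR's quasi-likelihood test. Among the line's markers, CD34, KIT, MPO, RUNX1, RUNX1T1 and CD33 were detected in all 12 libraries, but their levels differed between groups. Mean CD34 was 261 CPM in control, 51.8 with shRNA 1 and 178 with shRNA 2, and mean CD33 72.2, 63.1 and 183. MS4A1 and HBB of B and red cells were at 0 counts throughout, ALB reached at most 0.0658 CPM and CD3E 2.03, while the epithelial gene EPCAM had means of 134, 42.3 and 138 CPM. The part of these marker differences in the results on runs was not tested. The 3'READS libraries held 5666102 to 10846661 reads, of which 37.1% to 45.2% fell in the runs described. Control replicate 3 and shRNA 1 replicates 1 and 2 stood apart from the other libraries of their groups. Over the 2135 runs with at least 100 reads per library on average and reads in every library, mean positions correlated at 0.989 to 0.991 between libraries of 1 group when neither was among these 3, at 0.941 to 0.962 when at least 1 was, and at 0.972 to 0.979 between groups among the other 7. These correlations are over runs within libraries and carry no test. The total counts of called positions, sites and run levels are therefore also given without these 3 libraries, a choice made after seeing the data, and other counts are over all 10. Leaving them out leaves 2 control, 2 shRNA 1 and 3 shRNA 2 libraries.

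Most runs were small. Of the 2891, 1445 had 3 sites, 686 had 4, 352 had 5 and 23 had 12 or more, the largest with 31. Their length ran from 59 to 7888 nt with a median of 1364 nt, and neighbouring sites within them lay 25 to 1999 nt apart with a median of 278 nt, against 386 nt in runs of 2 sites. The runs were spread over both strands (1475 plus, 1416 minus), 1 of them lay on a contig not placed in a chromosome and 1 on a contig of chromosome 7 with no known position. Reads per library had a median of 218.4 per run and a range of 17.8 to 144288.5, and the 10 most abundant runs held 27.8% of the reads of all of them. At the edges of the rule, 986 member sites had a mean of 5 to under 6 reads while 4758 sites with 4 to under 5 reads were left out, and 182 neighbour distances up to 100 nt below the 2000 nt limit were joined while 174 up to 100 nt above it were not. For 694 member sites (5.85%) the mean of 5 reads was reached in 1 group only, namely control for 69, shRNA 1 for 256 and shRNA 2 for 369.

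One site usually dominated. In control cells the most used site was an inner one in 1315 runs, the last in 842 and the first in 734, and it held over 50% of the reads in 2195 (75.9%). Its identity, read from group means, differed between shRNA 1 and control in 359 runs (12.4%) and between shRNA 2 and control in 355 (12.3%). Among runs with at least 100 reads per library these were 174 (8.15%) and 175 (8.19%). No test was made of these switches.

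**Figure D1:**
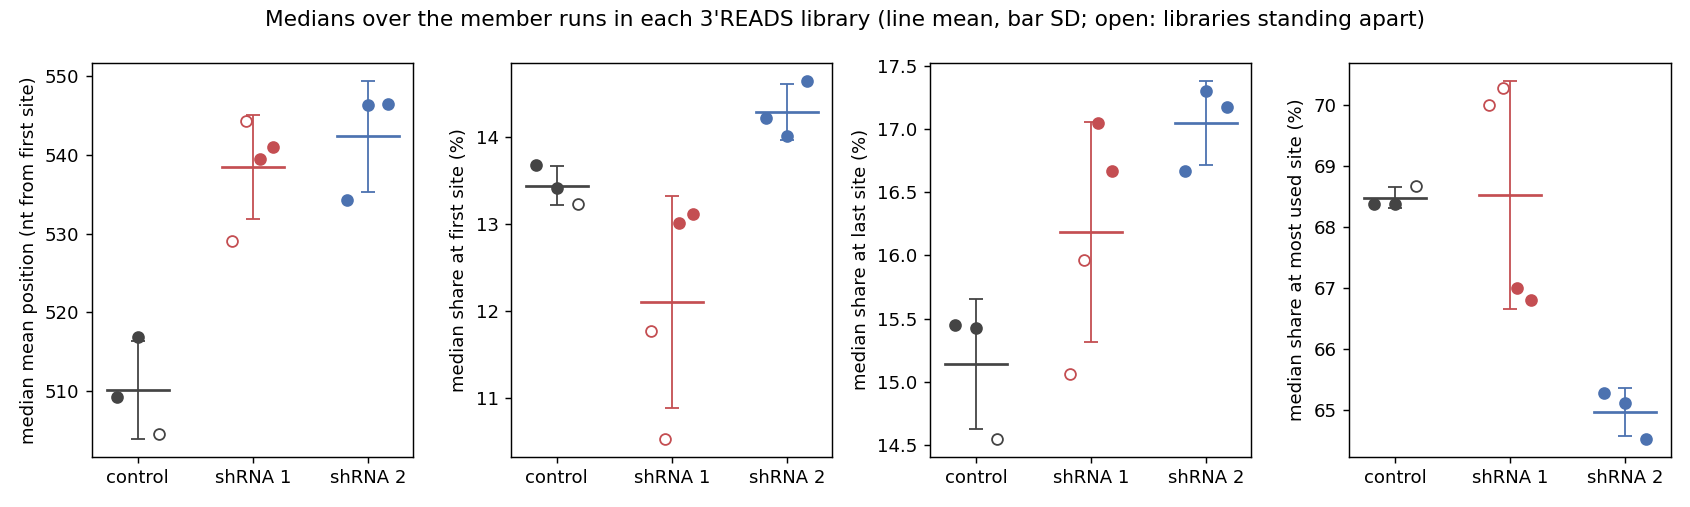
Medians over the 2891 runs in each 3'READS library, by group: the read-weighted mean position in nt from the first site, and the percent of run reads at the first, the last and the most used site (points are libraries, lines means, bars SD, open points the 3 libraries standing apart). The control libraries sit at 504.5 to 516.8 nt, below all shRNA libraries, and the shRNA 2 libraries have the lowest share at the most used site.

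The median run had its mean position slightly further downstream in the libraries of either shRNA. The median over runs of the mean position was 509.2, 516.8 and 504.5 nt from the first site in the 3 control libraries. It was 529.1, 544.3, 539.5 and 541.1 nt with shRNA 1, and 534.2, 546.3 and 546.6 nt with shRNA 2. All 7 shRNA libraries were above all 3 control libraries, with group means of 510.2 ± 6.23 (SD, n = 3), 539 ± 6.60 (SD, n = 4) and 542 ± 7.05 nt (SD, n = 3). As a fraction of run length, from 0 at the first site to 1 at the last, the group means of the library medians were 0.485 ± 0.00523 (SD, n = 3) in control, 0.499 ± 0.00476 (SD, n = 4) with shRNA 1 and 0.492 ± 0.00128 (SD, n = 3) with shRNA 2. On this scale the lowest shRNA 2 library lay just below the highest control library, both at 0.491, so those groups overlapped. With sites joined only up to 1000 nt, the difference for shRNA 1 was 0.0012. At a joining distance of 5000 nt it was 0.0283, and 0.0201 for shRNA 2. These medians are a description of the chosen runs and have no test.

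The shares at the ends of the run gave a different picture for each shRNA. The median share at the last site was 14.5% to 15.4% in control, 15.1% to 17.0% with shRNA 1 and 16.7% to 17.3% with shRNA 2, so that shRNA 2 lay above control without overlap and shRNA 1 did not. At the first site the medians were 13.2% to 13.7% in control and 14.0% to 14.7% with shRNA 2. That difference of 0.854 percentage points in the means was -0.0022 when sites needed a mean of 10 reads, and -0.0491 when sites were joined up to 5000 nt. With shRNA 1 the first site held 11.8% and 10.5% in replicates 1 and 2, which stood apart, and 13.01% and 13.1% in replicates 3 and 4, just under the lowest control. The most used site held a median of 68.4% to 68.7% in control, 64.5% to 65.3% with shRNA 2, and 70.0%, 70.3%, 67.0% and 66.8% in the 4 shRNA 1 libraries. The inverse sum of squared shares, which reads as an effective number of sites in use, was 1.87 to 1.89 in control and 2.00 to 2.01 with shRNA 2. By both measures the shRNA 2 libraries lay beyond all control libraries, while the shRNA 1 libraries fell on both sides of control. Of the member sites that reached a mean of 5 reads in 1 group only, 369 did so with shRNA 2, 256 with shRNA 1 and 69 in control. Such sites add to the number in use in their group, so the read rule bears on both measures. Its part in the gap was not tested. Replicates 1 and 2 of shRNA 1 were also the shallowest libraries of all, with 5705530 and 5666102 reads, and their part in the shRNA 1 medians was not tested.

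Only a small number of runs had a mean position whose change passed the test, which was limma over all runs with at least 2 sites and 20 reads per library on average, with Benjamini-Hochberg adjustment at 0.05. Of 2880 runs tested (11 of the 2891 were under 20 reads), 25 shifted toward the last site with shRNA 1 and 8 toward the first. Over all 6083 runs tested, 0.773% were called toward the last site and 0.362% toward the first, so the 25 runs (0.868%) and 8 runs (0.278%) were near the background share. With shRNA 2, 11 runs shifted toward the last and 11 toward the first site (0.382% each), against 0.329% and 0.493% of all runs tested. Unadjusted p was under 0.05 in 429 runs with shRNA 1 and 398 with shRNA 2. The median change over all members tested was 0.0061 with shRNA 1 and 0.0042 with shRNA 2, beside 0.0031 and 0.00091 over all runs tested.

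Without the 3 libraries standing apart, shRNA 1 gave 22 runs toward the last and 13 toward the first site, sharing 10 and 4 with the lists above. These were 0.764% and 0.451% of the members, against 0.773% and 0.592% of all runs tested. In that setting shRNA 2 gave 40 and 28, sharing 8 and 8, or 1.39% and 0.972% against 1.15% and 1.28%. The shares were again near the background. The number of calls also rested on single libraries. For shRNA 1 the 33 calls fell to 4, 0 and 16 without control replicates 1, 2 and 3, to 11 without shRNA 1 replicate 3, and to 10, 11 and 9 without shRNA 2 replicates 1, 2 and 3, which share the estimate of the spread. For shRNA 2 the 22 calls fell to 4, 1 and 4 without control replicates 1, 2 and 3, to 8 without shRNA 1 replicate 3, and to 0, 3 and 3 without shRNA 2 replicates 1, 2 and 3. Without shRNA 1 replicate 1 they rose to 33, and without shRNA 1 replicate 4 they were 15. Read without the test, 317 runs (11%) had all shRNA 1 libraries beyond all control libraries toward the last site and 158 (5.49%) toward the first, against 8.1% and 5.49% of all runs tested. For shRNA 2 these were 520 (18.1%) and 371 (12.9%), against 14.9% and 13.2%.

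**Figure D2:**
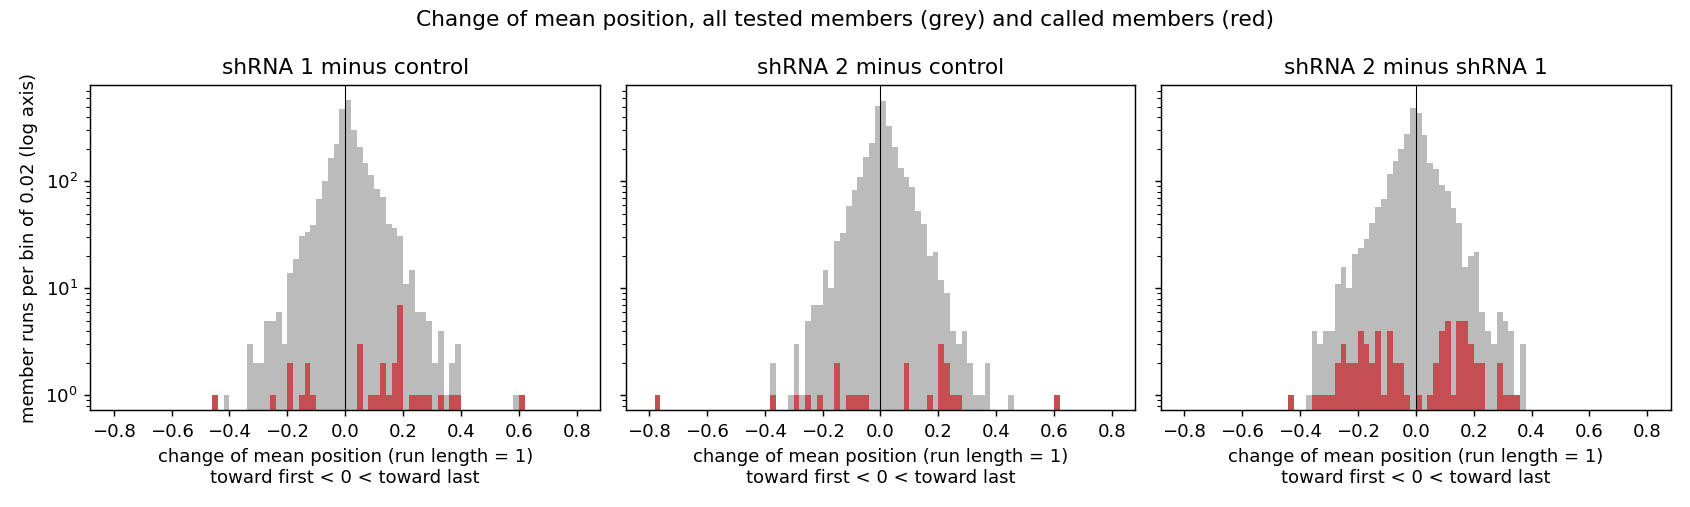
Change of mean position in all runs with a test, in units of run length (horizontal axis) and as a count of runs per bin of 0.02 on a log axis (vertical), for shRNA 1 minus control, shRNA 2 minus control and shRNA 2 minus shRNA 1. Most runs lie close to 0, and the called runs (red) sit in both tails, from -0.45 to 0.61 with shRNA 1 and from -0.78 to 0.61 with shRNA 2.

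Calls were more frequent in runs with 5 or more sites than in runs with 3, and the longest runs held most calls toward the last site. With shRNA 1, 11 of 760 runs with 5 or more sites were called toward the last site and 5 toward the first, compared with 8 and 1 of 1434 runs with 3 sites. In either direction 2.11% and 0.628% were called, and 1.12% of runs with 2 sites. The share called also rose with reads, from 0.672% of members under 100 reads per library to 1.94% at 1000 or more. By length, the longest 961 runs (above 1878 nt) held 17 of the 25 calls toward the last site. With shRNA 2 those runs held 8 of the 11 calls toward the last site, and the shortest 960 (up to 883 nt) held 9 of the 11 toward the first. The median change in the shortest 960 was 0.0014 with shRNA 1 and -0.00049 with shRNA 2, against 0.0105 and 0.00824 in the longest 961. The difference between them was not tested.

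Only 1 run with at least 100 reads per library was called with both shRNAs in 1 direction and had all 7 shRNA libraries outside the control range. It lies at chr22:19833671-19837764 on the minus strand, spans 4093 nt and has 5 sites. Its mean position was 0.601, 0.596 and 0.696 in control, 0.905, 0.935, 0.868 and 0.860 with shRNA 1, and 0.894, 0.900 and 0.882 with shRNA 2. The reads lay at its ends in every library. At the first site the share was 35.6%, 33.4% and 27.9% in control, 8.61%, 5.12%, 11.8% and 10.1% with shRNA 1, and 9.46%, 7.89% and 9.43% with shRNA 2. The last site held 61.1% ± 5.72 (SD, n = 3), 87.9% ± 3.99 (SD, n = 4) and 87.9% ± 0.915 (SD, n = 3). The position changed by 0.26 ± 0.030 (SE) and 0.26 ± 0.032 (SE), with limma adjusted p of 0.012 and 0.0163. In edgeR's test of use within the run, the first site changed by log2 -1.87 and -1.83 (adjusted p = 0.0012 and 0.0128). The level of the whole run did not pass the test (log2 -0.16 and -0.39, edgeR adjusted p = 0.662 and 0.325), and without the 3 libraries the position changes were 0.27 and 0.29 (limma adjusted p = 0.0189 and 0.0104). Over the alternative settings, the shRNA 1 call was kept in 14 and missed the threshold in 3. The shRNA 2 call was kept in 11 and missed in 6, and the direction never changed. Among those missed were shRNA 1 without control replicate 2 and shRNA 2 without shRNA 2 replicate 1, where no member passed.

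Among runs with at least 100 reads per library, the largest shifts toward the first site called with shRNA 1 alone were in a pair of runs on chromosomes 22 and 21. The run at chr22:39708888-39711287 (minus, 6 sites) stood at 0.995, 0.993 and 0.985 in control, that is with nearly all reads at its last site, and at 0.945, 0.967 and 0.963 with shRNA 2. With shRNA 1 it stood at 0.714, 0.690, 0.824 and 0.770, below every other library. The second site, 35 nt after the first, had 0, 0 and 1 reads in the control libraries and 74, 122, 120 and 139 with shRNA 1, or 15.4% ± 3.99 (SD, n = 4) of the run (edgeR adjusted p = 3.37e-10). That site had 7, 3 and 5 reads with shRNA 2, so it passed the read rule through shRNA 1, the group where it was high. Of the other sites before the last, the first, the fourth and the fifth reached a mean of 5 reads with shRNA 1 only, so they too entered the run through that group. The position change, which includes all of these sites, was -0.24 ± 0.029 (SE; limma adjusted p = 0.0137).

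In the run at chr21:46225540-46226631 (minus, 6 sites) the mean position was 0.853, 0.859 and 0.794 in control and 0.569, 0.630, 0.658 and 0.689 with shRNA 1. With shRNA 2 it was 0.871, 0.876 and 0.881, above control. The share at its first site rose from 13.5% ± 4.31 (SD, n = 3) to 31.6% ± 6.0 (SD, n = 4) with shRNA 1 (edgeR adjusted p = 0.0425). The level of this run was lower with shRNA 1 (log2 -0.97, edgeR adjusted p = 0.00141). Its position change was -0.20 ± 0.032 (SE; limma adjusted p = 0.0308).

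Toward the last site, again among runs with at least 100 reads per library, the largest shifts called with shRNA 1 alone were at chr12:50156784-50158717 (plus, 4 sites) and chrX:71798674-71800481 (minus, 4 sites). The chromosome 12 run stood at 0.277, 0.236 and 0.271 in control, 0.750, 0.708, 0.566 and 0.501 with shRNA 1, and 0.213, 0.220 and 0.155 with shRNA 2. All shRNA 1 libraries were above the rest, and the replicates that stood apart were the highest. The first site held 60.9% ± 5.07 (SD, n = 3) in control and 26.2% ± 11.9 (SD, n = 4) with shRNA 1, and the third site, 1709 nt downstream, 18.3% ± 1.99 and 47.9% ± 10.77. Neither site passed on its own (edgeR adjusted p = 0.0734 and 0.0505). The position change was 0.37 ± 0.059 (SE; limma adjusted p = 0.0308), or 0.28 (adjusted p = 0.0457) without the 3 libraries. The chromosome X run stood at 0.282, 0.266 and 0.357 in control, 0.623, 0.650, 0.699 and 0.579 with shRNA 1 and 0.299, 0.427 and 0.323 with shRNA 2. Its change with shRNA 1 was 0.34 ± 0.043 (SE; limma adjusted p = 0.0161) and missed the threshold without the 3 libraries at 0.37 (adjusted p = 0.0643).

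**Figure D3:**
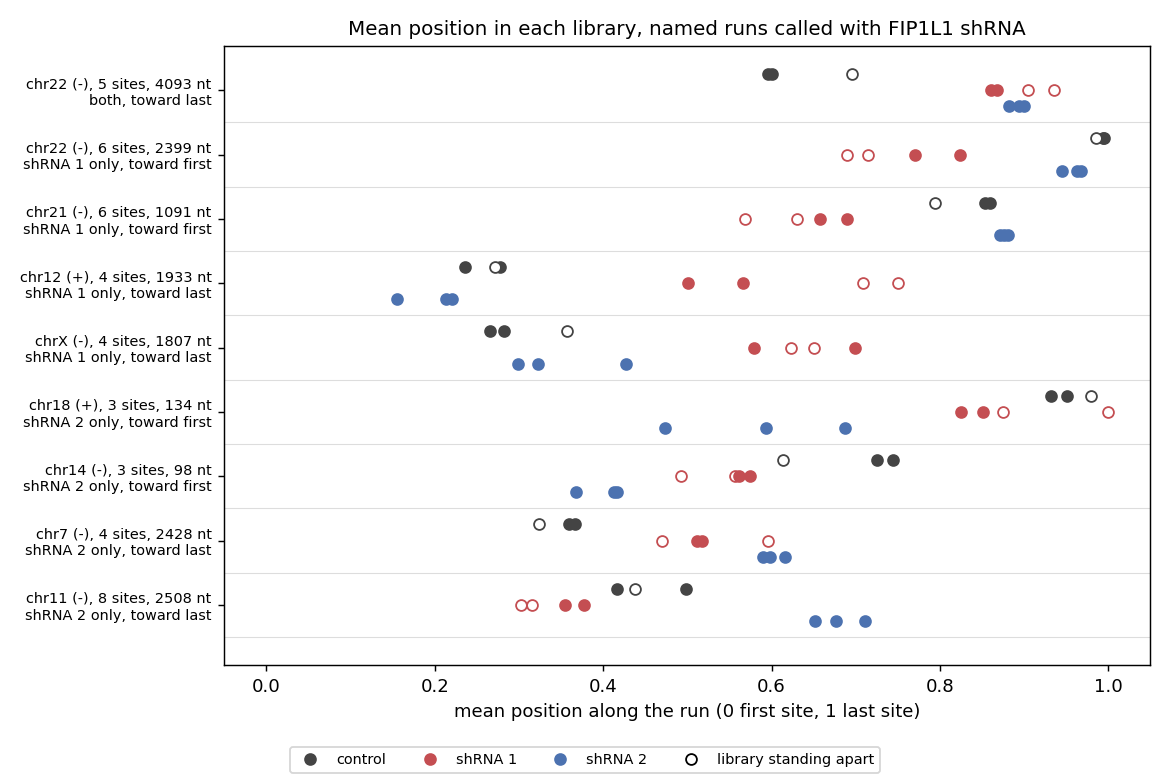
Mean position along the run (0 first site, 1 last site) in each library for the 9 runs named for a called shift with 1 or both shRNAs, black for control, red for shRNA 1, blue for shRNA 2, open for the libraries standing apart. In the uppermost run both shRNA groups lie above control, whereas in the rows labelled shRNA 1 only or shRNA 2 only the called group lies apart from control.

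With shRNA 2 alone, the 2 runs with the largest called shifts toward the first site, among those with at least 100 reads per library, spanned 98 and 134 nt. In the run at chr14:74946650-74946748 (minus, 3 sites) the mean position was 0.725, 0.744 and 0.613 in control, 0.492, 0.557, 0.574 and 0.561 with shRNA 1, and 0.368, 0.413 and 0.416 with shRNA 2. Both shRNA groups lay below control, but only the shRNA 2 change passed (-0.30 ± 0.041 SE, limma adjusted p = 0.027; -0.15 ± 0.038 SE, adjusted p = 0.123 with shRNA 1). Its first site held 30.5% ± 7.12 (SD, n = 3) of reads in control and 60.0% ± 2.62 (SD, n = 3) with shRNA 2. The level of the run rose with both (log2 1.13 and 1.57, edgeR adjusted p = 0.0074 and 0.00291). In the run at chr18:47340679-47340813 (plus, 3 sites) the position was 0.951, 0.932 and 0.979 in control and 0.593, 0.473 and 0.687 with shRNA 2. This run fell to 2.89 to 4.68 CPM with shRNA 2 from 22.0 to 39.0 in control, so its shRNA 2 positions rest on few reads. Its change of -0.37 ± 0.060 (SE; limma adjusted p = 0.0412) missed the threshold without the 3 libraries (adjusted p = 0.0614).

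Toward the last site with shRNA 2, the run at chr7:100169855-100172283 (minus, 4 sites) stood at 0.366, 0.360 and 0.324 in control and 0.590, 0.598 and 0.616 with shRNA 2. The shRNA 1 libraries, at 0.470, 0.596, 0.512 and 0.517, were also above control. The changes were 0.25 ± 0.035 (SE; limma adjusted p = 0.027) with shRNA 2 and 0.17 ± 0.033 (SE; adjusted p = 0.0504) with shRNA 1. Its first site held 30.1% ± 4.47 (SD, n = 3) in control, 12.6% ± 3.91 (SD, n = 4) with shRNA 1 and 15.6% ± 0.622 (SD, n = 3) with shRNA 2, and its last site 22.4% ± 4.73, 39.8% ± 6.09 and 51.4% ± 1.89. The level of the whole run rose with both (log2 0.83 and 0.84, edgeR adjusted p = 0.00623 and 0.0145). The run at chr11:22841953-22844461 (minus, 8 sites) stood below control with shRNA 1 and above it with shRNA 2, and only the shRNA 2 change was called. It stood at 0.417, 0.498 and 0.438 in control, 0.303, 0.316, 0.355 and 0.377 with shRNA 1 and 0.711, 0.676 and 0.651 with shRNA 2. The shRNA 2 change was 0.23 ± 0.034 (SE; limma adjusted p = 0.0327), and the seventh site held 59.8% ± 3.27 (SD, n = 3) of reads with shRNA 2 against 31.8% ± 5.42 (SD, n = 3) in control.

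**Figure D4:**
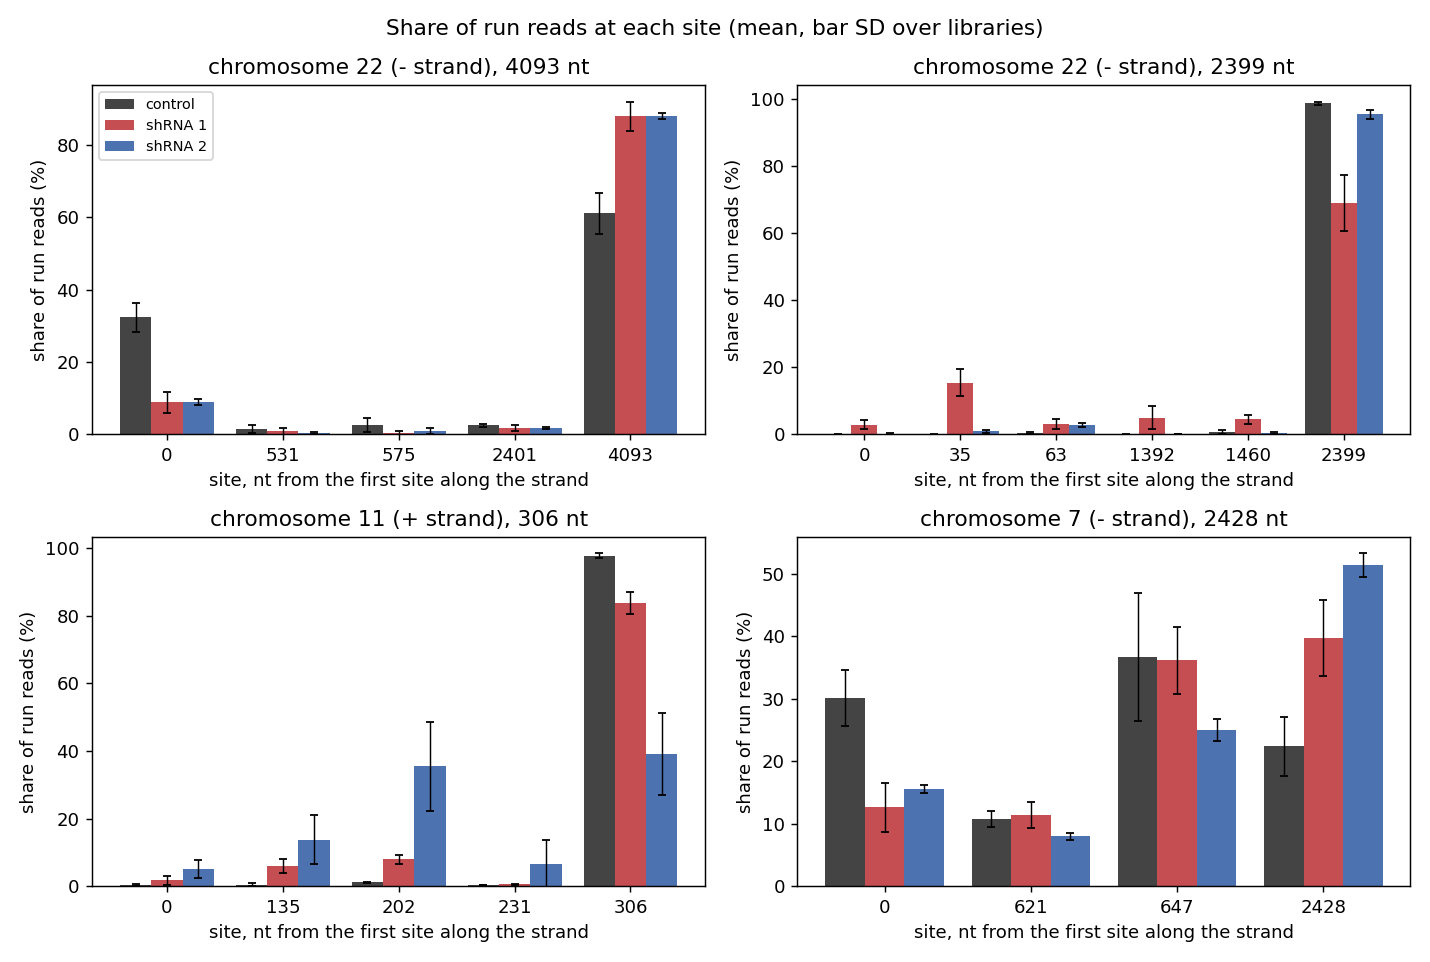
Percent of run reads (mean, bars SD over libraries) at each site of 4 runs, by group, with each site labelled by its distance in nt from the first site (evenly spaced, not to scale). The first run (4093 nt) loses reads at its first site with both shRNAs, the second (2399 nt) gains early sites with shRNA 1, the third (306 nt) gains inner sites with both, and the fourth (2428 nt) has 22.4%, 39.8% and 51.4% at its last site.

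In the test of each site's use relative to its run, edgeR called 129 of 11861 member sites higher and 50 lower with shRNA 1, against 0.797% and 0.307% of all 19191 sites tested, so the members at 1.09% and 0.422% were a little above both. With shRNA 2 it called 56 higher and 10 lower (0.472% and 0.0843%), against 0.391% and 0.0625%. The sites called higher were mostly minor ones, with a median share of 2.06% of the run over all libraries for shRNA 1 and 2.98% for shRNA 2, while those called lower had 6.65% and 6.95%. Of the 129 sites called higher with shRNA 1, 34 reached 5 reads through 1 group only, and so did 3 of the 56 with shRNA 2, so these counts are partly set by the rule. limma's voom with diffSplice gave another split, with 106 higher and 91 lower for shRNA 1 and 45 higher and 56 lower for shRNA 2, so the excess of higher calls held with edgeR and not, for shRNA 2, with voom.

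Called sites lay in few runs. They were in 124 runs (4.29%) with shRNA 1 and 57 (1.97%) with shRNA 2, against 2.36% and 1.19% of all runs with 2 or more sites, which hold fewer sites each. Without the 3 libraries standing apart the counts rose to 342 higher and 178 lower with shRNA 1 and 613 higher and 187 lower with shRNA 2. The share over all sites is not given for this setting, so these counts have no background beside them. Leaving out single libraries also moved the totals of 179 and 66 by more than 1.5 times. For shRNA 1 this was so without control replicate 1 (75) and 2 (87). For shRNA 2 it was so without control replicates 1, 2 and 3 (20, 28 and 36), without shRNA 1 replicates 1 and 2 (143 and 151), and without shRNA 2 replicates 1, 2 and 3 (20, 25 and 27).

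With the sites grouped into first, inner and last, the inner class was called higher in 15 runs with shRNA 1 and lower in 3, and higher in 16 runs with shRNA 2 and lower in 2, out of 2891 runs with inner sites (0.519%, 0.104%, 0.553% and 0.0692%). The first site was called higher in 29 and lower in 11 runs with shRNA 1, against 0.564% and 0.259% of all 6556 first sites, and higher in 8 and lower in 2 with shRNA 2, against 0.275% and 0.0458%. For the last site the counts were 23 and 13 with shRNA 1, against 0.534% and 0.229%, and 9 and 4 with shRNA 2, against 0.244% and 0.0763%. Of the 2136 members with at least 100 reads per library and a position test, inner sites were called higher with both shRNAs in 6 and lower with both in 0. Inner sites rare in control could pass the read rule through the shRNA groups. The split between higher and lower calls is therefore partly set by the rule. Over the first, inner and last classes together, the 94 calls for shRNA 1 became 49 and 48 without control replicates 1 and 2. The 41 for shRNA 2 became 11, 10 and 20 without control replicates 1, 2 and 3, 88 and 93 without shRNA 1 replicates 1 and 2, and 7, 5 and 7 without shRNA 2 replicates 1, 2 and 3.

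One of them was the run at chr11:93454727-93455033 (plus, 5 sites, 306 nt). Control cells used its last site for 97.7% ± 0.723 (SD, n = 3) of reads, which was 83.8% ± 3.22 (SD, n = 4) with shRNA 1 and 39.0% ± 12.2 (SD, n = 3) with shRNA 2. The third site, 202 nt along, had 1.14% ± 0.236 in control, 7.92% ± 1.43 with shRNA 1 and 35.4% ± 13.3 with shRNA 2. The log2 changes of the inner class within the run were 2.89 and 4.84 (edgeR adjusted p = 4.63e-05 and 9.76e-09). The level of the run was 122 to 137 CPM in control and 148 to 170 with shRNA 1, but 8.26 to 9.42 with shRNA 2, a fall of the whole run (log2 -3.84, edgeR adjusted p = 3.48e-07). The third site had 7, 16 and 7 reads in control, 68, 45, 113 and 105 with shRNA 1, and 15, 21 and 41 with shRNA 2.

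In the shortest of all the runs, 59 nt at chr6:52860689-52860748 (plus, 3 sites), the inner site had 4, 5 and 0 reads in control, 214, 496, 908 and 975 with shRNA 1, and 217, 133 and 184 with shRNA 2. This inner site was under a mean of 5 reads in control, so it entered the run through the shRNA groups. Its share was 0.285% ± 0.248 (SD, n = 3), 7.16% ± 1.5 (SD, n = 4) and 2.29% ± 0.514 (SD, n = 3), and the inner class rose (log2 4.52 and 2.87, edgeR adjusted p = 2.6e-06 and 0.0134). The whole run rose as well, from 136 to 151 CPM in control to 847 to 1654 with shRNA 1 and 720.1 to 1309.7 with shRNA 2 (log2 3.19 and 2.81, edgeR adjusted p = 8.47e-06 and 8.27e-05). At chr17:56408249-56409715 (minus, 4 sites) the inner class was called (log2 4.29 and 3.04, edgeR adjusted p = 5.38e-05 and 0.0255). Its second site reached a mean of 5 reads with shRNA 1 only. The third, with 1, 0 and 0 reads in control, reached it with the shRNA groups only. The last site kept 99.9% ± 0.0506, 99.1% ± 0.463 and 99.7% ± 0.0713 of reads. A call on use within a run can therefore concern a trace of its reads.

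Of the other 3 runs with inner sites called higher with both, which lie beyond the number set for naming and were chosen after their values were seen, a pair changed in a large share of reads. At chr9:137027046-137029697 (minus, 5 sites) the first site held 82.6% ± 1.51 (SD, n = 3) in control, 34.6% ± 19.1 (SD, n = 4) with shRNA 1 and 23.9% ± 4.74 (SD, n = 3) with shRNA 2. The second site, 97 nt further, held 2.90%, 38.3% and 21.9%, and the third, at 137 nt, 5.19%, 21.2% and 46.0%. The mean position of the run differed from control by only -0.00944 and 0.0211 of its length. At chr14:65541845-65542263 (minus, 3 sites) the inner site went from 9.83% ± 1.37 (SD, n = 3) to 34.0% ± 6.0 (SD, n = 4) and 44.1% ± 4.07 (SD, n = 3), with edgeR adjusted p of 0.0226 and 0.00822 for that site.

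The extremes of the set differed in how their reads were spread. The run with most sites, 31 over 5601 nt at chr11:65188395-65193996 (plus), had 82.0% ± 4.52 (SD, n = 3) of its reads at the last site in control, 70.5% ± 8.47 (SD, n = 4) with shRNA 1 and 88.1% ± 1.12 (SD, n = 3) with shRNA 2. In control each of its other sites held at most 4.35%. Its level rose from 199 to 270 CPM in control to 426 to 726 with shRNA 1 (log2 1.36, edgeR adjusted p = 0.000921) and was 199.6 to 252 with shRNA 2, while its position did not pass (limma adjusted p = 0.075 and 1). Several of its sites reached a mean of 5 reads with shRNA 1 only. The eleventh had 0, 2 and 0 reads in control, 10, 12, 15 and 17 with shRNA 1, and 1, 2 and 0 with shRNA 2. The number of sites in this run was thus partly set by the group where its level was high. The longest run, 7888 nt with 9 sites at chr4:17629791-17637679 (plus), spread its reads widely, with 25.3% ± 1.5 (SD, n = 3) at the seventh and 18.7% ± 2.68 at the last site in control. The seventh site had 40% ± 3.35 (SD, n = 4) with shRNA 1, and the fourth and the fifth fell from 11.6% and 10.1% to 1.92% and 0.719% (edgeR adjusted p = 0.046 and 0.00495). The run with most reads, at chr19:3976055-3976235 (minus, 3 sites), averaged 144288.5 reads per library and had its mean position at 1.000 in all 10.

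A change of level was called in far more runs than a change of position or of site use. The tests differ, so these counts do not show which of them changed more. With shRNA 1, edgeR called 287 of the 2891 runs higher and 533 lower (9.93% and 18.4%), against 8.97% and 9.81% of all 22145 runs, isolated sites included. With shRNA 2 it called 177 higher and 216 lower (6.12% and 7.47%), against 5.19% and 5.25%. The median log2 change was -0.10 for the runs and 0.02 for all features with shRNA 1, and -0.04 and -0.01 with shRNA 2. Without the 3 libraries standing apart, 593 were higher and 847 lower with shRNA 1, and 1333 were called with shRNA 2, of which 708 were lower. The share over all 22145 runs is not given for this setting, so these counts have no background beside them. Single libraries moved these counts too: the 820 calls for shRNA 1 fell to 524 and 525 without control replicates 1 and 2, and the 393 for shRNA 2 fell to 244 and 240 without the same libraries and to 183, 165 and 185 without shRNA 2 replicates 1, 2 and 3. In bulk RNA, fewer transcripts made and less RNA kept per cell cannot be told apart.

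Of the 33 runs whose position was called with shRNA 1, the level was called higher in 9, lower in 10 and neither in 14. With shRNA 2 the 22 called runs divided into 6, 3 and 13. Over all 2891 members the level was called higher in 9.93% and lower in 18.4% with shRNA 1, and in 6.12% and 7.47% with shRNA 2. Over all 22145 runs these shares were 8.97% and 9.81%, and 5.19% and 5.25%. Whether runs with a called position differ from these shares was not tested. Across the 2880 runs tested, Pearson's r between the change of position and the change of level was -0.00043 with shRNA 1 and 0.022 with shRNA 2. These points share libraries and runs, and the values are given as a description.

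Several runs with large called changes of level are given next, chosen after their values were seen, from those with at least 100 reads per library. A run of 90 nt with 4 sites at chr11:62609079-62609169 (minus) had 30.8, 34.5 and 34.2 CPM in control, 4559, 4488, 3828 and 4477 with shRNA 1 and 469, 316 and 375 with shRNA 2. The log2 changes were 7.03 ± 0.27 (SE) and 3.54 ± 0.23 (SE), with edgeR adjusted p of 1.79e-09 and 1.31e-06. A run of 76 nt with 3 sites at chr10:103124604-103124680 (minus) had 21.2, 19.1 and 20.6 CPM in control, 2115, 1801, 1825 and 2131 with shRNA 1, and 176, 107 and 138 with shRNA 2 (log2 6.60 and 2.79, edgeR adjusted p = 2.95e-09 and 1.82e-05). Both rose with both shRNAs, without overlap, and their shRNA 1 libraries were highest. The same order was seen at chr12:120729569-120730903 (minus, 4 sites), with 0.121 to 1.60 CPM in control, 52.1 to 75.2 with shRNA 1 and 3.10 to 5.20 with shRNA 2 (log2 6.4 and 2.44, edgeR adjusted p = 9.4e-07 and 0.00791). Most reads of that run came from shRNA 1, so it passed the read rule mainly through that group. The opposite order was seen at chr14:24052658-24052848 (minus, 4 sites), with 0 to 1.03 CPM in control, 0 to 0.575 with shRNA 1 and 49.5 to 59.7 with shRNA 2. Its log2 change was 6.55 with shRNA 2 (edgeR adjusted p = 1.31e-05) and did not pass with shRNA 1 (log2 -0.95, adjusted p = 0.434). Nearly all of its reads came from shRNA 2, so it passed the read rule through the group where it was high. Membership of this run and of the one before it was thus partly set by the level that was tested. In the chromosome 10 run the share of the last site fell from 20.8% ± 4.74 (SD, n = 3) to 1.49% ± 0.511 (SD, n = 4) and 1.95% ± 0.326 (SD, n = 3), with edgeR adjusted p of 8.73e-10 and 9.54e-07.

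A run of 17 sites within 863 nt on the unplaced contig gl000220, at positions 117890 to 118753 of the plus strand was far higher with shRNA 1 than in control. It had 321, 273 and 404 CPM in control, 22716, 10750, 19260 and 21869 with shRNA 1, and 1585, 859 and 1068 with shRNA 2 (log2 5.81 and 1.82, edgeR adjusted p = 3.27e-07 and 0.00261). Its mean position was 0.400, 0.418 and 0.409 in control, 0.241, 0.293, 0.243 and 0.243 with shRNA 1, and 0.394, 0.391 and 0.404 with shRNA 2, a change of -0.15 ± 0.022 (SE; limma adjusted p = 0.0251) with shRNA 1. The sixteenth site held 50.8% ± 2.22 (SD, n = 3) in control, 14.0% ± 1.82 (SD, n = 4) with shRNA 1 and 47.9% ± 1.92 (SD, n = 3) with shRNA 2. Whether reads of this contig also match other copies in the genome was not tested.

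Levels also changed with 1 shRNA only, in opposite directions, or downward with both. The run at chr12:6979795-6980088 (plus, 4 sites) had 551 to 980 CPM in control, 45.3 to 77.0 with shRNA 1 and 598 to 731 with shRNA 2, so that its level was lower with shRNA 1 (log2 -3.50, edgeR adjusted p = 7.43e-07) and did not pass with shRNA 2 (log2 -0.17, adjusted p = 0.742). Its mean position stayed between 0.679 and 0.689 in all libraries. The run at chr11:294766-297524 (plus, 4 sites) went the opposite ways, from 74.1 to 81.4 CPM in control to 110.0 to 227 with shRNA 1 and 5.23 to 11.1 with shRNA 2 (log2 0.98 and -3.27, edgeR adjusted p = 0.0256 and 6.17e-05). The run at chr7:92546274-92548163 (plus, 4 sites) fell with both, from 62.6 to 71.7 CPM to 9.14 to 27.7 and 3.26 to 4.85 (log2 -2.0 and -4.15, edgeR adjusted p = 0.000384 and 2.94e-05).

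**Figure D5:**
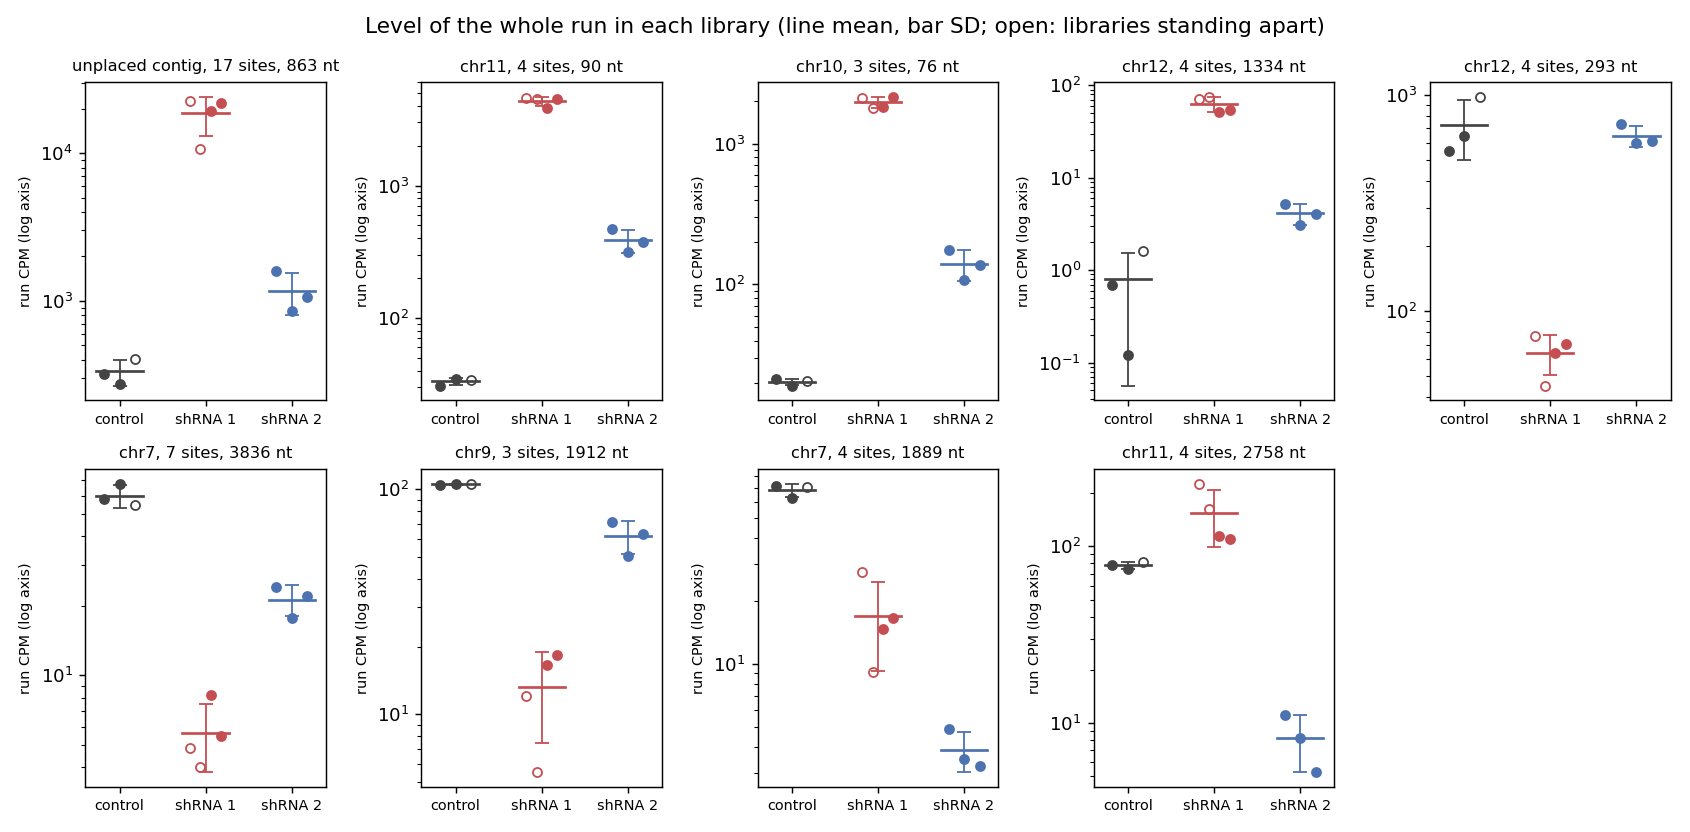
Level of the whole run in CPM on a log axis, in each library by group, for 9 runs with the largest changes of level (points are libraries, lines means, bars SD, open points the libraries standing apart). In the first 3 panels all shRNA libraries lie above all control libraries, with shRNA 1 highest.

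The 2 shRNAs also differed from each other. With shRNA 1 as the reference, limma called 36 runs (1.25%) with a mean position nearer the last site in shRNA 2 and 37 (1.28%) nearer the first. Of all runs tested, 1.02% and 1.2% were called. Without the 3 libraries, 32 and 41 runs were called (1.11% and 1.42%), against 0.937% and 1.2% of all runs tested. The 73 calls fell to 40, 42 and 45 without shRNA 1 replicates 1, 3 and 4, to 44 and 37 without control replicates 1 and 2, and to 9, 29 and 14 without shRNA 2 replicates 1, 2 and 3. Read without the test, 396 runs had all shRNA 2 libraries nearer the first site than all shRNA 1 libraries and 331 nearer the last, against 12.5% and 9.76% of all runs tested, or 13.8% and 11.5% of the members. Site use was called higher in shRNA 2 for 154 member sites and lower for 83 by edgeR, against 1.04% and 0.495% of all sites, while voom split the calls into 208 higher and 238 lower. Those 237 edgeR calls became 70, 83 and 61 without shRNA 2 replicates 1, 2 and 3, and the 918 calls of level below became 566, 528 and 532. The level was called higher in shRNA 2 for 543 runs and lower for 375, against 12.1% and 12% of all features. The largest called differences of position among the named runs were -0.435 ± 0.0592 (SE; limma adjusted p = 0.0123) at chr12:50156784-50158717 and 0.34 ± 0.032 (SE; adjusted p = 0.00672) at chr11:22841953-22844461.

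A few further runs, chosen after their values were seen, had clear changes. The run at chr19:1272540-1274806 (plus, 3 sites, 3071.4 reads per library) stood at 0.694, 0.688 and 0.683 in control, 0.883, 0.903, 0.865 and 0.865 with shRNA 1, and 0.790, 0.789 and 0.778 with shRNA 2. The change was 0.19 ± 0.018 (SE; limma adjusted p = 0.00759) with shRNA 1 and 0.10 ± 0.019 (SE; adjusted p = 0.0647) with shRNA 2, and 0.175 (adjusted p = 0.0355) and 0.095 (adjusted p = 0.0496) without the 3 libraries. Its inner site, 629 nt from the first, held 42.2% ± 0.493 (SD, n = 3) in control, 16.3% ± 2.38 (SD, n = 4) with shRNA 1 and 28.6% ± 0.874 (SD, n = 3) with shRNA 2. In this run the groups were well separated in order from control through shRNA 2 to shRNA 1.

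The run at chr7:44998408-45002261 (minus, 6 sites) moved with shRNA 2, from 0.115, 0.093 and 0.059 in control to 0.295, 0.286 and 0.306, and stood at 0.128, 0.114, 0.151 and 0.149 with shRNA 1. The shRNA 2 change was 0.21 ± 0.018 (SE; limma adjusted p = 0.00759), and the fifth site went from 7.11% ± 2.77 (SD, n = 3) to 25.1% ± 2.97 (SD, n = 3; edgeR adjusted p = 0.00473). Below 100 reads per library, 2 further runs were called with both shRNAs. The run at chr10:89704917-89705831 (plus, 3 sites, 54.2 reads per library) shifted toward the first site, from 0.890, 0.806 and 1.000 in control to 0.477, 0.391, 0.553 and 0.354 with shRNA 1 and 0.109, 0.127 and 0.132 with shRNA 2 (limma adjusted p = 0.0161 and 0.00759). Its control positions rest on 17, 9 and 8 reads, and without the 3 libraries the shRNA 1 change missed the threshold (adjusted p = 0.0758). The run at chr12:133194229-133194451 (minus, 3 sites, 32.7 reads per library) shifted toward the last site, but 1 control library had no read of it and entered the fit as missing. The 2 limma adjusted p, shRNA 1 first, were 0.0104 and 0.0163, or 0.0592 and 0.0488 without the 3 libraries. Whether the sites of this run passed the read rule only through the shRNA groups was not tested.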

How the data were processed

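3'READS libraries (10) and RNA-seq libraries (12) of Kasumi-1 cells were analysed. The authors deposited a table of raw read counts per poly(A) site and a table of raw counts per gene. The submitters' processing notes name cutadapt 2.6, STAR 2.7.3a, DESeq2 and hg19, without saying which step used which. How sites were defined, and whether internally primed sites were removed, is not stated in the labels or headers. Positions are printed as the table gives them.

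Site use and first, inner and last class use were tested with edgeR 4.0.16 (quasi-likelihood fit, diffSpliceDGE), run totals and genes with edgeR's quasi-likelihood test on TMM-scaled counts, and mean position with limma 3.58.1 (trend, robust), in R 4.3.3. All groups shared a fit, and p-values were adjusted by Benjamini-Hochberg over all features tested, with calls at 0.05. Sites needed a mean of 5 reads, and position tests a mean of 20 reads in the run. A library without reads in a run was missing in its position fit. Scripts were tested on simulated data. The members and lists were chosen with earlier results of these data known.

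Runs were named by rule from those with at least 100 reads per library: up to 5 each way called with both shRNAs with all libraries beyond control, 2 each way called with 1 shRNA only, 2 called in opposite directions, 3 each way with inner sites called with both, those with most sites, length and reads, and the 2 differing most between shRNAs. No run was called in opposite directions. Runs outside this rule are marked as chosen after their values were seen. Gene names, the sequence around sites and a list of genes to be looked up need an hg19 genome and annotation and are not analysed here. Alternatives were RLE scaling, DESeq2 1.42.0, voom, other joining distances and read minima, positions in nt, read weights, a replicate block and leaving out libraries. Read counts have no molecular identifiers that the sources used here describe, so shares cover counting and replicate error only.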

Additional observations from a re-analysis of the deposited data

Results flagged for a closer look

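Among the runs named above for a call against control, 7 had a mean position that differed between shRNA 2 and shRNA 1 by limma's test of that difference with Benjamini-Hochberg adjustment, all without overlap between the groups. They are part of the 73 runs called in that comparison. Most were named as the largest shifts called with 1 shRNA only, a choice that favours a difference between the shRNAs. The runs at chr12:50156784-50158717 and chr11:22841953-22844461 were also named for this very difference. That these runs passed is therefore partly set by how they were chosen. In 4 of the 7, shRNA 1 alone was called against control. The difference, shRNA 2 minus shRNA 1 in units of run length, was 0.209 at chr22:39708888-39711287 (adjusted p = 0.0131), 0.239 at chr21:46225540-46226631 (adjusted p = 0.0123), -0.435 at chr12:50156784-50158717 (adjusted p = 0.0123) and -0.288 at chrX:71798674-71800481 (adjusted p = 0.0168). In the other 3 shRNA 2 alone was called against control. The difference was -0.304 at chr18:47340679-47340813 (limma adjusted p = 0.0381), 0.342 at chr11:22841953-22844461 (adjusted p = 0.00672) and -0.186 at chr11:93454727-93455033 (adjusted p = 0.0152). Without control replicate 3 and shRNA 1 replicates 1 and 2, which stood apart, 4 of the 7 still passed, and the runs on chromosome X, chromosome 18 and the plus strand of chromosome 11 did not (limma adjusted p = 0.0694, 0.116 and 0.0914). Their differences were then -0.29, -0.254 and -0.174, with 2 shRNA 1 libraries left.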

How the results depend on the processing

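FIP1L1 kept its direction and call throughout, at -1.50 to -1.39, -1.10 to -1.05 and 0.31 to 0.42 (log2) when single libraries were left out. Counts of members called are given below in the order shRNA 1, shRNA 2, shRNA 2 against shRNA 1, and causes were not tested.

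Leaving out 1 library at a time gave 75 to 231, 20 to 151 and 61 to 304 sites, 48 to 133, 5 to 93 and 27 to 186 first, inner or last classes, 0 to 37, 0 to 33 and 9 to 75 positions, and 524 to 899, 165 to 581 and 528 to 1020 run totals. Without the 3 libraries standing apart there were 520, 800 and 663 sites, 310, 528 and 433 classes, 68 positions for shRNA 2, and 1440, 1333 and 1572 totals.

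Joining up to 1000 nt gave 78, 39 and 135 sites, 46, 24 and 78 classes, and 8, 14 and 32 positions, and joining up to 5000 nt gave 398, 141 and 482 sites, 216, 95 and 288 classes, and 130, 85 and 182 positions, with other sets of runs in each. With voom there were 101 and 446 sites for shRNA 2 and for shRNA 2 against shRNA 1, and 147, 65 and 299 classes. Positions called were 63, 56 and 136 with at least 100 reads in the run, 54 and 45 in nt for each shRNA against control, and 48 for shRNA 2 with weights by reads. Sites with a mean of 10 reads gave 483, 236 and 557 totals.

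The difference of the library medians of position, 0.0136 for shRNA 1 and 0.00692 for shRNA 2, was 0.0244 and 0.0153 with sites of 10 reads, 0.0283 and 0.0201 with joining to 5000 nt, 0.0199 and 0.0131 in runs with 100 reads, and 0.00119 for shRNA 1 with joining to 1000 nt. The shRNA 2 difference in median first-site share, 0.854 percentage points, turned to -0.0022 with sites of 10 reads and -0.0491 with joining to 5000 nt. Of the values for single named runs under the alternatives, 210 kept direction and call, 108 kept the direction but missed the threshold, and 0 reversed.

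The replicate numbers are shared between groups, but the labels do not say whether they pair the samples. Not every same-numbered pair of libraries deviated together. This cannot settle the point, since 3 libraries stood apart, and the main tests treated the samples as unpaired. With a replicate block there were 94, 28 and 130 sites, 51, 7 and 62 classes, 0, 1 and 0 positions, and 523 and 204 totals for each shRNA against control. Depth limits sites near 5 reads, where a library can hold 0 reads of a site by counting error.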
